A study of Mus musculus with 10 samples.

Results

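The inguinal fat pad of the mouse is also the bed of a mammary gland, and its digest can release gland cells together with the cells of fat. The mammary epithelial cells described here were chosen by a rule on measured values. A cell was taken when it carried at least 2 UMIs (unique molecular identifiers, each standing for 1 captured molecule) of Krt8, Krt18, Krt19, Epcam, Wfdc18 and Prlr together, from at least 2 of these 6 genes, and when Dcn, Col1a1, Col1a2, Col3a1 and Lum, 5 genes of fibroblasts, made up less than 3% of its UMIs. The rule found 137 of 10914 cells, of which 57 came from the Bbs8 KO and 80 from the Bbs8 WT.

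The stromal vascular fraction (SVF), which is what remains of digested fat once the adipocytes are removed, was prepared from inguinal white adipose tissue (iWAT) of lean mice aged 7 weeks, and cells were sequenced with Seq-Well S3, a method that pairs cells with barcoded beads in microwells. The series text names 1 Bbs8-/- mouse (KO) and 1 Bbs8+/+ mouse (WT). Bbs8 encodes a subunit of the BBSome, the complex that moves membrane proteins in and out of primary cilia, and the knockout is present in all tissues. The labels list 5 samples per genotype, which were treated as technical, and the table holds 5 barcode sets per genotype. Differences between the mice therefore had no replicate check, no test was made, and genotype cannot be told apart from the individual mouse or its dissection. The X-linked Xist was read in all 10 barcode sets, at 578 CPM (counts per 1000000 UMIs) in the KO and 418 CPM in the WT, and Ddx3y, Uty, Eif2s3y and Kdm5d of the Y chromosome had 0 UMIs.

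The mammary gland is a branched tree of ducts with an inner luminal and an outer basal layer. Hormone-sensing luminal cells carry the receptors for oestrogen, progesterone and prolactin and pass the signal on through secreted factors such as amphiregulin. Secretory luminal cells and their progenitors depend on Elf5 and make milk proteins when prolactin activates Stat5. Basal cells carry keratins 5 and 14 and contract through smooth muscle actin and myosin to eject milk.

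A property of the table bears on every gene of a rare cell type. Within a barcode set, 55 to 116 genes were read in exactly 1 cell and 307 to 535 in exactly 2 cells, against 786 to 1327 genes in exactly 3 cells, as would be left if genes seen in fewer than 3 cells of a set had been put to 0 before cells were removed. The sources used here do not state such a step. A gene listed at 0 over a whole set can then hide up to 2 cells of that set, so for each such gene an upper limit is given that adds 2 cells for every set listed at 0. Intervals below, and limits given for counts of 0 alone, cover counting error only. The limits for hidden cells add a fixed number of cells and hold no counting error.

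Mammary epithelial cells were a larger share of the WT than of the KO digest. They made up 57 of 8985 KO cells, which is 0.634% (exact Clopper-Pearson 95% interval 0.481 to 0.821), and 80 of 1929 WT cells, which is 4.15% (3.30 to 5.14). The share was 6.54 times higher in the WT. The digests also differed in their other cells. T and B cells called by marker genes were 1712 of 8928 other KO cells and 89 of 1849 other WT cells, so the shares rest on different mixtures. Among the KO barcode sets the shares were 0.288%, 0.299%, 1.15%, 0.672% and 0.673% (sets KO5_p2, KO5_p3, KO6_p1, KO6_p2 and KO6_p3). Among the WT sets they were 3.91%, 8.13%, 8.67%, 2.21% and 2.27% (sets WT3_p1, WT3_p2, WT3_p3, WT4_p2 and WT4_p3). The ranges did not overlap, and the 3 sets with the code WT3 were higher than the pair with the code WT4. Each set held 5 to 23 epithelial cells in the KO and 8 to 27 in the WT. With every cell thinned to 200 UMIs, which left out 2719 KO and 385 WT cells, the shares were 0.543% and 3.11%. Of 36 barcodes found in more than 1 set, 7 epithelial cells carried one, and without all such cells the shares were 0.640% and 3.84%.

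**Figure D1:**
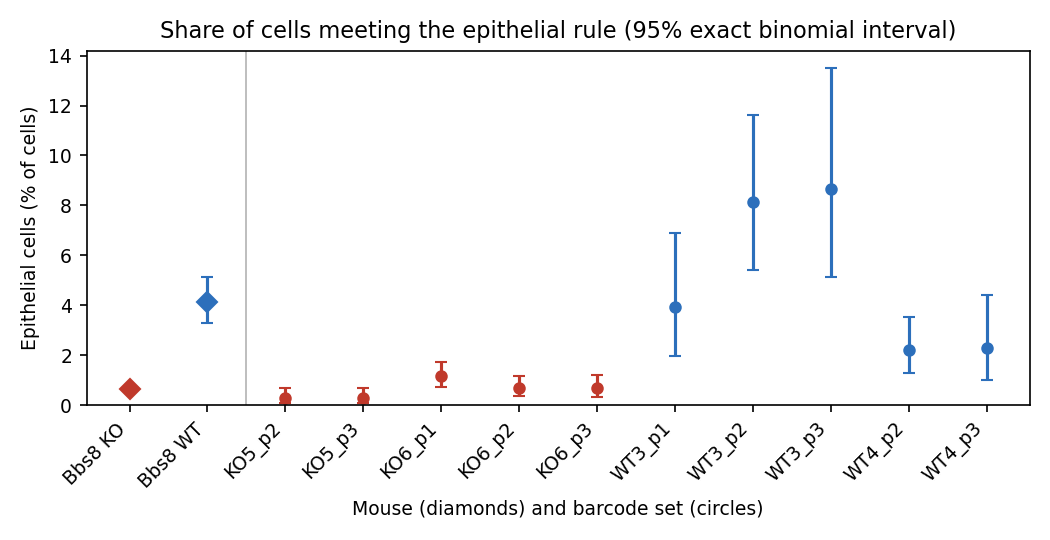
Share of cells that met the epithelial rule (y axis, percent of all cells) in each mouse (diamonds) and barcode set (circles), with exact binomial 95% intervals. The 5 KO sets lie between 0.288% and 1.15% and the 5 WT sets between 2.21% and 8.67%.

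Cells near the limits of the rule were found in both mice. The median cell carried 4 marker UMIs and the highest 35. Of the 137 cells, 64 had 2 of the marker genes, 38 had 3 and 35 had 4 or more, and 27 cells (13 KO and 14 WT) held exactly the 2 UMIs that the rule asks for. Just outside it were 159 cells with 1 marker UMI, 40 cells with 2 or more UMIs of the same marker and 12 cells that met the marker part but had 3.14% to 6.60% fibroblast UMIs, where the highest value among the epithelial cells was 2.79%. The epithelial cells were deeper than the rest, with a median of 337 UMIs in the KO (250 in its other cells) and 386 in the WT (275). The rule itself favours deeper cells, since it asks for 2 marker UMIs, so a trait of the cell type cannot be told apart from the choice of cells. In all the epithelial cells held 25335 KO and 38420 WT UMIs. The mitochondrial share was 8.08% in KO and 12.2% in WT epithelial cells, against 8.24% and 8.34% in other cells.

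The 6 marker genes chose the cells, so their levels are a description. Krt18, which pairs with Krt8 in simple epithelia, was read in 39 of 57 KO cells at 2881 CPM (2259 to 3623) and in 44 of 80 WT cells at 1744 CPM (1351 to 2215). Krt8 had 1697 CPM in the KO and 1015 CPM in the WT. Epcam, an adhesion molecule of epithelia, was close in both, with 1184 CPM (799 to 1690) in the KO and 1354 CPM (1011 to 1775) in the WT. The other 3 genes differed more. Krt19, a keratin of luminal cells, had 4816 CPM in the KO and 1484 CPM in the WT, and 1 cell with 20 UMIs held 11.2% of its UMIs over both mice.

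Prlr and Wfdc18 divided the epithelial cells along the line between the mice. Prlr, the prolactin receptor, was read in 33 of 57 KO cells at 2447 CPM (1876 to 3137) and in 18 of 80 WT cells at 755 CPM (506 to 1084). Wfdc18, a secreted WAP-domain protein of the gland, was read in 6 KO cells at 395 CPM (189 to 726) and in 71 WT cells at 6481 CPM (5701 to 7338). By set, Wfdc18 gave 5, 0, 2, 0 and 3 UMIs in the KO and 42, 104, 51, 40 and 12 in the WT. The 2 KO sets at 0 can hide up to 4 cells, which would bring the KO share from 10.5% to 17.5% of cells, against 88.8% in the WT. Of the 33 KO cells with Prlr, 2 also carried Wfdc18, and of the 18 WT cells with Prlr, 16 did.

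Transcripts that the rule did not use also marked these cells as epithelial. Among 327 genes with at least 20 UMIs in the epithelial cells, 78 (23.9%) were higher than in other cells by a log2 ratio of at least 1. The ratio is the mean of both mice with a pseudocount of 20 CPM. This count is a description, since the 78 include the 6 marker genes of the rule. The minimum of 20 UMIs, set in the epithelial cells alone, also favours genes that are high there. The genes named next were not part of the rule. Of 15 epithelial transcription and splicing factors, 12 had a row and all 12 were read. Ehf, an Ets factor of epithelia, had 627 CPM against 4.74 CPM in other cells, from 40 WT and 0 KO UMIs. Gata3, the factor of luminal fate, had 345 CPM against 17.1 CPM, and the repressor Trps1 had 25 UMIs and a log2 ratio of 3.07 over other cells. Of 19 genes of junctions and adhesion, 14 had a row and 12 were read, and they summed to 1500 CPM in KO and 1171 CPM in WT epithelial cells, against 202 and 158 CPM in other cells, and 61 of 137 epithelial cells (44.5%) carried such a UMI against 5.60% of other cells. The claudins Cldn3 and Cldn4 had 267 and 157 CPM against 2.90 and 1.58 CPM. Other keratins were read at 355 CPM in the KO and 729 CPM in the WT, led by Krt14 with 16 UMIs, all in the WT, and Krt7 with 13.

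The 25 genes with the highest ratios over other cells, chosen by size with the rule genes left out, ran from a log2 ratio of 4.32 for Lcn2 to 1.98 for Rps27l. They included the chloride transporter Slc12a2 (log2 ratio 3.69), Tmem56 (3.57), the EGF receptor ligand Areg (3.55), the receptor phosphatase Ptprf (3.50), the chaperone Clu (3.32), the cell cycle driver Ccnd1 (3.22), the growth factor Ptn (3.20) and the coregulator Cited1 (2.51). Of the 25, 15 exceeded a log2 ratio of 1 in each mouse taken alone, among them Lcn2 (4.16 in KO and 4.48 in WT), Ptprf (3.29 and 3.72), Ptn (3.30 and 3.10) and Sox4 (2.60 and 2.02). Of the other 10, Cited1 passed in the KO alone, and Mfge8, Phlda1 and 7 genes with 0 KO UMIs passed in the WT alone.

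**Figure D2:**
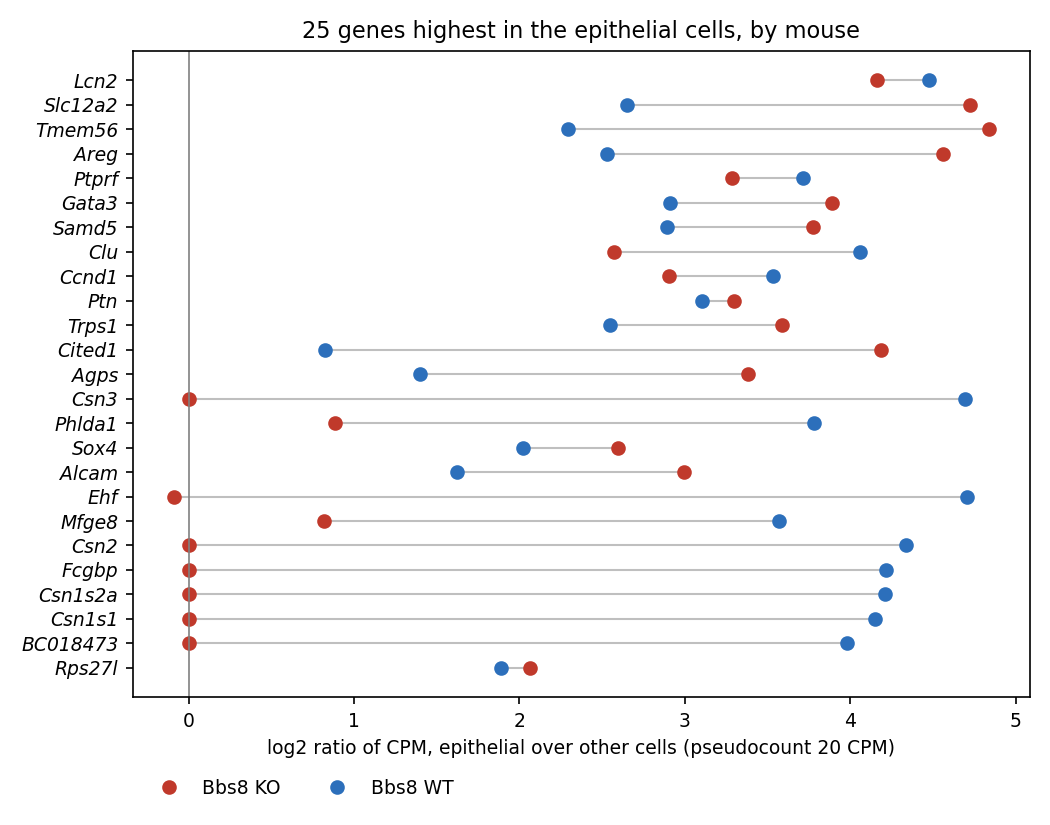
The log2 ratio of CPM in epithelial over other cells (x axis, pseudocount of 20 CPM) for the 25 genes with the highest mean ratio (y axis), in the Bbs8 KO (red) and the Bbs8 WT (blue). Lcn2, Ptprf, Ptn and Rps27l lie close in both mice, while the caseins, Fcgbp, Ehf and BC018473 lie at or next to 0 in the KO.

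Levels of many genes differed between the epithelial cells of the mice. Of the 327 genes, 45 were higher in the KO by a log2 ratio of at least 1 (13.8%) and 64 were lower by as much (19.6%), around a median log2 ratio of -0.20. The minimum of 20 UMIs was taken over both mice, so a gene at 0 in the KO could enter through the WT alone. The WT also held more UMIs (38420 against 25335). The counts include genes of the rule, with 2 markers and 3 fibroblast genes among the higher and 1 marker among the lower. They are therefore a description. With DESeq2 size factors the counts were 32 and 105, and the median was -0.58. With the 312 genes that had a UMI in every barcode set, they were 40 and 55. Without the epithelial cells that carried a UMI of a T cell, B cell, endothelial or macrophage gene they fell to 12 and 32, and without set WT3_p2 to 38 and 35. Both settings left out cells, so fewer genes could reach the minimum of 20 UMIs. The counts are therefore not out of 327, and their totals are not given. Of the 25 epithelial genes above, 7 were higher in the KO and 11 lower.

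Milk protein transcripts were read in WT and not in KO epithelial cells. The 10 genes of the list (7 with a row) gave 211 UMIs in 53 of 80 WT cells, which is 5492 CPM (4776 to 6285), and 0 UMIs in 57 KO cells. By set, the WT cells gave 62, 69, 25, 43 and 12 UMIs, so no set stood without them. Csn2, which encodes beta-casein, had 16, 20, 8, 13 and 6 UMIs in the WT sets and 1640 CPM (1260 to 2098) in all. Csn3 (kappa-casein) had 1301 CPM, Csn1s2a 1197 CPM, Csn1s1 859 CPM and the mucin Muc15 442 CPM. These casein genes lie together within 266 kb of chromosome 5 (87666208 to 87932665 in GRCm38).

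The KO zeros need the limit set out above, because the caseins were listed at 0 in all 5 KO sets over all cells. Up to 10 of 57 KO cells could then hide each casein, which allows up to 17.5% of cells. In the WT, Csn2 was read in 41.3% of epithelial cells (30.4 to 52.8), Csn3 in 35.0% (24.7 to 46.5), Csn1s1 in 23.8% (14.9 to 34.6) and Csn1s2a in 21.3% (12.9 to 31.8). The KO limit, which holds no counting error of its own, lies below the WT interval for Csn2 and Csn3 and inside it for Csn1s1 and Csn1s2a. Over all cells of the table, the limit of 10 cells is 0.111% of the KO, against 64 WT cells with Csn2, which is 3.32% (2.56 to 4.22). No bound on the fold is given for these genes, since the hidden UMIs cannot be bounded.

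Casein RNA was also present outside the chosen cells of the WT. Csn2 was read in 31 of 1849 other WT cells at 62.0 CPM (44.7 to 83.8), and in 0 of 89 WT lymphocytes, which allows up to 87.5 CPM. Of these 31 cells, 29 were among the 63 WT cells of the epithelial cluster, described below, that did not meet the rule. The 63 cells held 40 Csn2 UMIs, and their milk protein list stood at 6571 CPM (5406 to 7913). The clustering left out the rule genes but not the caseins. Within the epithelial cells that met the rule, casein RNA was concentrated. The 5 cells with most UMIs held 39.7% of Csn2 and 67.4% of Csn1s2a, of which 1 cell alone carried 19 of 46 UMIs.

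The stretches of 120 bases before the start sites of Csn1s1, Csn2 and Wfdc18 are shown because the first pair of genes was read in WT epithelial cells without a KO count, while Wfdc18 had the highest WT level of the 6 marker genes. They are RefSeq sequences of GRCm38.p6, 5′ to 3′ on the strand of the gene, and capitals mark the motif TTCNNNGAA, the palindromic form bound by Stat5.
Csn1s1 (chr5:87666088-87666207, plus strand): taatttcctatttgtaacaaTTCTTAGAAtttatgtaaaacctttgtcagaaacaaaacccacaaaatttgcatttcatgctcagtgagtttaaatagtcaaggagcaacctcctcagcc
Csn2 (chr5:87699426-87699545, minus strand): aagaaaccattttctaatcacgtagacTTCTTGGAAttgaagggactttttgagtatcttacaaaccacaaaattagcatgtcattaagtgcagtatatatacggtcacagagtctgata
Wfdc18 (chr11:83708884-83709003, plus strand): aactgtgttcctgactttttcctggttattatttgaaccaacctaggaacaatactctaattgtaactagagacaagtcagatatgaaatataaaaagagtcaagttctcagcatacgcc
The motif, which reads the same on both strands, starts 100 bases before the start of Csn1s1 and 93 before that of Csn2. No match was found for Wfdc18, also over the 300 bases that the table holds, and in Csn1s2a it lay 20 bases past the start. Of 3 Prlr promoters, 1 held it 110 bases before the start, and Lcn2, Fcgbp, Areg, Krt8, Krt18, Epcam and Cited1 had no match, so it was not limited to genes higher in the WT, nor present in all of them. It was present in 8.3% of 32851 promoters of 300 bases, and in 3.15% within the 120 bases before the start.

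Other secretory genes were also lower in the KO, and for those listed in every KO set over all cells no cells can be hidden. Mfge8, which encodes a protein of milk fat globules, is such a gene and had 98 UMIs in 46 of 80 WT cells (57.5%, 45.9 to 68.5) against 7 UMIs in 2 of 57 KO cells (3.51%, 0.428 to 12.1). Trf, which encodes the iron carrier transferrin, was read in 38 WT cells and 2 KO cells, at 1718 and 78.9 CPM. The complement gene C3 had 83 UMIs in 34 WT cells and 5 in 4 KO cells, and Clu had 63 UMIs in 34 WT and 10 in 10 KO cells. The lipid droplet gene Plin2 was read in 13 WT cells and 1 KO cell. Lcn2, an iron-binding defence protein, had 7, 14, 6, 5 and 2 UMIs in the WT sets and 7, 1, 2, 0 and 0 in the KO sets, with a log2 ratio of KO over WT of -1.13 (95% interval of the plain ratio -2.35 to -0.12), and its 1 KO set at 0 over all cells allows up to 10.5% of KO cells against 33.8% in the WT. The list of milk fat and lipid synthesis summed to 908 CPM in the KO and 3800 CPM in the WT, where Mfge8 and Plin2 gave 98 and 16 of its 146 WT UMIs. Its enzymes of fatty acid synthesis had few UMIs, with 5 KO and 4 WT for Acly, 1 and 2 for Fasn and 1 and 0 for Acaca. Of the 131 WT UMIs of innate defence secretions (1026 CPM in the KO and 3410 CPM in the WT), C3 and Lcn2 gave 83 and 34.

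Of the 16 secretory progenitor genes, 14 had a row and 11 were read, for a sum of 1303 CPM (897 to 1829) in the KO and 6325 CPM (5555 to 7172) in the WT. The log2 ratio of KO over WT was -2.26 (-2.85 to -1.75), and without set KO5_p2 it was -3.25. In that set 1 cell of 1048 UMIs carried 18 of the 33 KO UMIs, with 7 of Lcn2, 5 of Mfge8, 3 of Cd14, 2 of the stem cell factor receptor Kit and 1 of Trf, along with 5 of Wfdc18. No other KO cell had more than 2 UMIs of the list, and 1 WT cell had as many as 18. This cell, picked out after its values were seen, had 0 UMIs of Csn2. Elf5 was read in 7 WT cells and 0 KO cells, where the limit of 10 hidden cells applies. Wfdc2, also on the list, went the other way, with 0, 0, 3, 2 and 1 UMIs in the KO sets. It was read in 6 KO cells (10.5%, 3.96 to 21.5) and 0 WT cells, but all 5 WT sets listed it at 0. Up to 12.5% of WT cells could thus carry Wfdc2, a limit inside the KO interval. Ehf, with 40 UMIs in 27 WT cells and 0 in the KO, was read in KO6_p1 over all cells and was at 0 in the other 4 KO sets, which allows up to 14.0% of KO cells against 33.8% in the WT. Fcgbp, which encodes a mucus-binding protein, and BC018473 had 43 and 90 UMIs in the WT and were at 0 in all 5 KO sets. BC018473 was read in 44 of 80 WT cells (55.0%, 43.5 to 66.2), more than carried any single casein.

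Genes of the hormone-sensing cells were higher in the KO. The 11 genes of the list, all with a row, summed to 2566 CPM (1980 to 3270) in the KO and 1015 CPM (722 to 1388) in the WT, a log2 ratio of 1.32 (0.74 to 1.95). By set, the sums were 1419 to 3687 CPM in the KO and 306 to 1603 CPM in the WT, so the ranges overlapped. In all, 31 of 57 KO cells (54.4%, 40.7 to 67.6) and 25 of 80 WT cells (31.3%, 21.3 to 42.6) carried a UMI of the list. Of its genes with at least 20 UMIs, Areg, Cited1 and Gata3 were all higher in the KO by a log2 ratio of at least 1.

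Cited1, a coregulator of the oestrogen receptor, had 0, 2, 7, 9 and 3 UMIs in the KO sets and 1, 1, 0, 1 and 1 in the WT sets. It was read in 16 KO cells (28.1%, 17 to 41.5) and 4 WT cells (5%), at most 7.5% with hidden cells, and its log2 ratio was 2.77 (1.43 to 5.0). Areg, the ligand through which oestrogen drives duct growth, had 2, 1, 13, 2 and 0 UMIs in the KO sets and 0, 4, 0, 0 and 0 in the WT sets. It was read in 12 KO cells (21.1%, 11.4 to 33.9) and 2 WT cells (2.50%), but 4 WT sets listed it at 0, so up to 12.5% of WT cells could carry it, a limit inside the KO interval. Gata3 had 14 KO and 8 WT UMIs, and Foxa1, the pioneer factor of the oestrogen receptor, 5 and 0. Esr1 and Pgr, the receptors of oestrogen and progesterone, had 2 KO UMIs each, with 1 and 0 in the WT. Calca, which encodes calcitonin and CGRP, went the other way. It gave 16 of the 39 WT UMIs of the list and 0 in the KO, where up to 17.5% of cells could hide it against 17.5% read in the WT.

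Slc12a2, Tmem56 and Agps followed the same direction as Cited1 without being on the list. Slc12a2, a cotransporter of sodium, potassium and chloride, was listed in every set over all cells. The epithelial cells gave 3, 3, 20, 8 and 4 UMIs in the KO and 3, 10, 0, 1 and 0 in the WT. It was read in 22 KO cells (38.6%, 26.0 to 52.4) and 11 WT cells (13.8%, 7.07 to 23.3), a log2 ratio of 1.98 (1.12 to 3.04). Agps, an enzyme of ether lipid synthesis, had 24 KO and 5 WT UMIs, and Tmem56 17 and 3, with 4 WT sets at 0 for Tmem56. The ErbB list, which also holds Areg, summed to 1145 CPM in the KO and 260 CPM in the WT, of which Areg made up 18 of 29 and 4 of 10 UMIs.

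**Figure D3:**
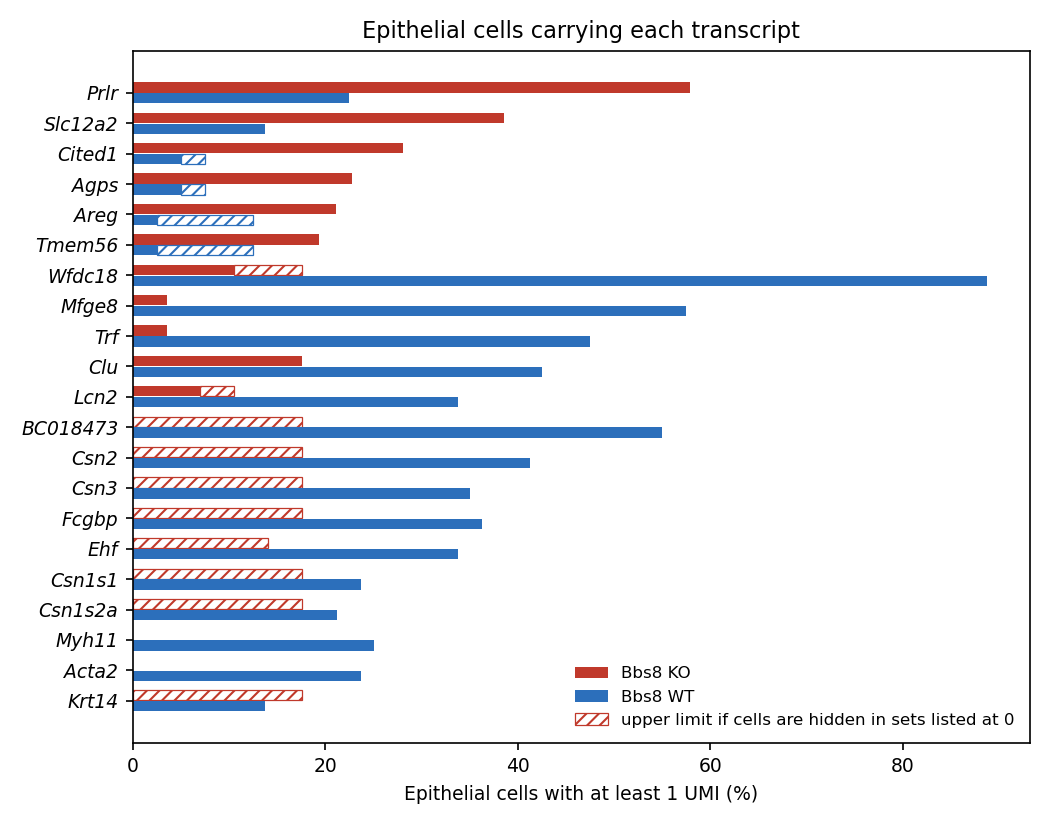
Share of epithelial cells with at least 1 UMI of each gene (x axis, percent) in the Bbs8 KO (red, 57 cells) and the Bbs8 WT (blue, 80 cells). Hatched extensions show the upper limit with 2 hidden cells for each barcode set that listed the gene at 0. Prlr to Tmem56 are higher in the KO, Wfdc18 to Ehf in the WT also at their limits, and the limit of Krt14 exceeds the WT value.

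Basal and contractile genes were read in WT epithelial cells. The list summed to 108 UMIs in 47 of 80 WT cells, which is 2811 CPM (2306 to 3394), and to 3 UMIs of Mylk in 1 KO cell of set KO6_p1. Acta2, which encodes smooth muscle actin, had 2, 8, 8, 7 and 3 UMIs in the WT sets and 0 in the KO. Since other cells of all KO sets carried Acta2, its KO zero hides no cell. It allows up to 5.26% of cells against 23.8% in the WT (14.9 to 34.6). The WT level of 729 CPM (484 to 1053) was 6.15 times the KO limit of 118 CPM. Myh11, the smooth muscle myosin heavy chain, was listed in every set as well and had 36 WT and 0 KO UMIs. Its WT level of 937 CPM (656 to 1297) was 7.91 times the KO limit. Tagln had 14 and 0, a WT level 3.08 times the KO limit. These folds leave out the counting error of the WT and are no minimum. Krt14 was read in 11 WT cells (13.8%, 7.07 to 23.3), Cnn1 in 9 and Krt5 and the oxytocin receptor gene Oxtr in 5 each, all at 0 in the KO but also in all KO sets, with a limit of 17.5% of cells that lies above these WT shares. Against other cells, the basal list was higher by a log2 ratio of 1.03 as the mean of both mice, and this turned to -0.37 without set KO6_p1.

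**Figure D4:**
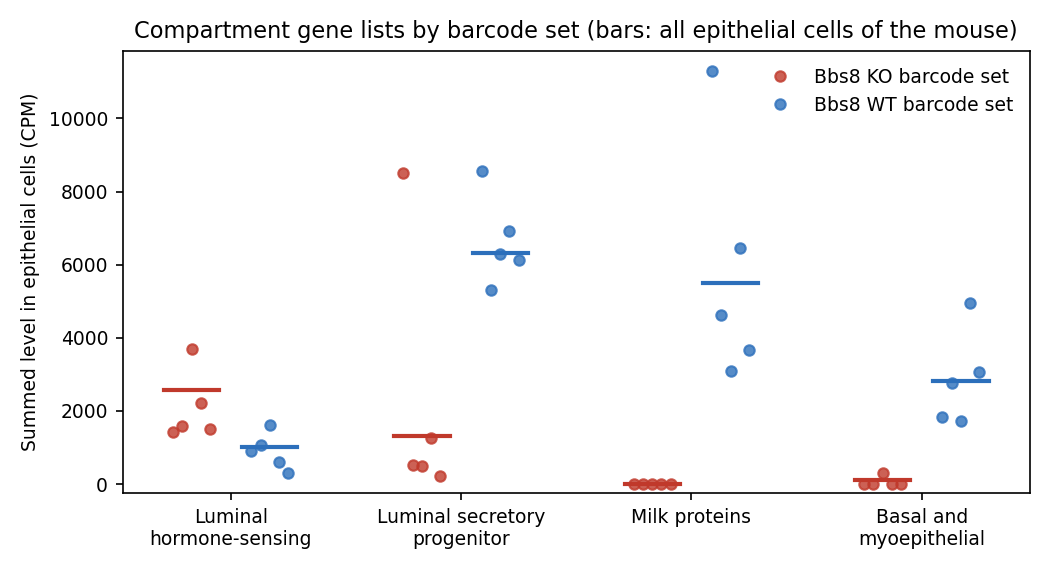
Summed level of 4 gene lists in the epithelial cells (y axis, CPM) by barcode set (points) and over all epithelial cells of the mouse (bars), in the Bbs8 KO (red) and the Bbs8 WT (blue). The milk protein and basal lists do not overlap between the mice, the hormone-sensing list overlaps, and KO5_p2 alone puts a KO point of 8515 CPM among the WT points of the secretory progenitor list.

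The programmes overlapped within cells. In the WT, 53 of 80 cells carried a milk protein UMI, 25 a hormone-sensing UMI and 24 a UMI of Krt5, Krt14, Krt17, Cnn1 or Oxtr. Of the 24 cells with a basal transcript, 20 also carried milk protein RNA, and of the 25 cells with a hormone-sensing transcript, 17 did. In 15 WT cells (18.8%) none of these was read, against 26 of 57 KO cells (45.6%, 32.4 to 59.3). The part of joined cells and of free casein RNA in this overlap was not tested. In both mice together, 59 cells had Wfdc18 without Prlr (4 KO and 55 WT) and 33 had Prlr without Wfdc18 (31 KO and 2 WT). Milk protein UMIs were found in 37 of the former and 0 of the latter, a split that cannot be told apart from the mouse.

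Not all cells that met the rule grouped together when the 11 rule genes were left out. Of 14 clusters, that with most epithelial cells held 165 cells (32 KO and 133 WT), among them 84 of the 137, namely 70 of 80 WT but 14 of 57 KO cells. The other 53 were spread over 11 clusters, with 24 in a cluster of 2284 cells. The 14 KO cells inside had a median of 554 UMIs and the 43 outside of 284. Of the marker genes, Krt19 (8369 CPM inside and 2871 CPM outside), Krt8 (2566 and 1222 CPM) and Epcam (1562 and 977 CPM) had higher values inside, with intervals that overlapped for Krt8 and Epcam. Krt18 (2566 and 3054 CPM), Prlr (2232 and 2565 CPM) and Wfdc18 (112 and 550 CPM) had higher values outside, with intervals that overlapped. Slc12a2 (2678 and 855 CPM), Tmem56 (1562 and 183 CPM) and Areg (1339 and 366 CPM) were higher inside. The hormone-sensing list had 3459 CPM inside and 2077 CPM outside, and milk proteins had 0 UMIs in both.

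The KO cells outside also carried more RNA of other cell types, while their level of the hormone-sensing list, 2077 CPM, stood beside 147 CPM in the other KO cells of the digest. Their 5 fibroblast genes had 8490 CPM against 1562 CPM in the KO cells inside, the macrophage and monocyte list 3665 against 1004 CPM, and the B cell list 1649 against 335 CPM. In the other KO cells of the digest, the fibroblast genes had 21476 CPM, macrophage genes 3769 CPM and B cell genes 2930 CPM. Of all 57 KO epithelial cells, 34 carried a UMI of a T cell, B cell, endothelial or macrophage gene, as did 22 of 80 WT cells. Among the other cells of both mice 73.2% did, but these include the cell types that the genes mark. That share is therefore no measure of stray RNA. Without the 56 epithelial cells that carried such a UMI, the shares were 0.256% in the KO and 3.01% in the WT. With the cluster as the only criterion they were 0.356% and 6.89%, and with both criteria 0.156% and 3.63%. Of the cluster cells that did not meet the rule, 6 of 18 in the KO and 39 of 63 in the WT had a marker UMI. The 18 KO cells had higher values of secretory genes than the 57 KO epithelial cells, with 4416 CPM (2697 to 6820) of the secretory progenitor list, 4195 CPM of Clu, 2870 CPM of Mfge8 and 883 CPM of Lcn2, of which the interval of Lcn2 (241 to 2261) overlapped that of the 57 cells. They had 0 UMIs of milk proteins, Wfdc18, Trf, Krt18 and Prlr, and their 5 fibroblast genes stood at 17222 CPM. In the 63 WT cluster cells that did not meet the rule, Clu and Mfge8 each stood at 1658 CPM and Lcn2 at 770 CPM. The intervals overlapped those of the 18 KO cells for Mfge8 and Lcn2, and not for Clu. The lower level of Clu, Mfge8 and Lcn2 in the KO was thus seen in the cells that met the rule, and not in the cluster cells that did not. Other genes at 0 in the 18 KO cells were read in the 63 WT cells. Milk proteins had 6571 CPM there, Wfdc18 3315, BC018473 2309 and Trf 888 CPM (497 to 1465). The KO zeros allow up to 662 CPM, which lies inside the interval of Trf. For Wfdc18, BC018473 and the caseins, the limit of hidden cells applies as well.

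**Figure D5:**
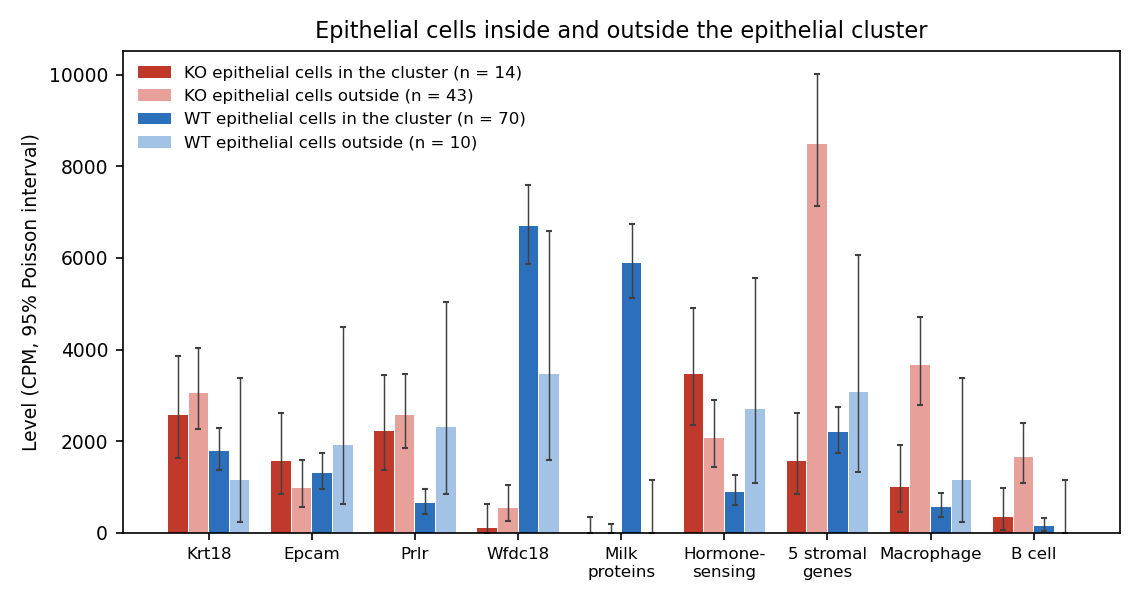
Levels (y axis, CPM with exact Poisson 95% intervals) of 4 rule genes and 5 gene lists in the epithelial cells inside and outside the cluster that holds most of them, for the Bbs8 KO (reds, 14 and 43 cells) and the Bbs8 WT (blues, 70 and 10 cells). The KO cells outside have the highest level of the 5 stromal genes, 8490 CPM, and milk proteins appear in the WT cells inside.

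Of the 10 genes most raised in the KO epithelial cells, several are known from other cells. H2-Ab1 and C1qb, genes of antigen-presenting cells and macrophages, had 47 and 25 KO against 11 and 8 WT UMIs, and Postn, a matrix protein of fibroblasts, had 24 against 2. Their log2 ratios in the epithelial cells were 2.61, 2.14 and 3.75, and 0.94, -0.27 and -0.85 in other cells. Postn turned to -0.052 when the fibroblast limit of the rule was 1%, and C1qb was 0.95 without set KO6_p2. Without cells that carried RNA of another type, H2-Ab1 was 1.26. The macrophage list had 2724 CPM in KO and 599 CPM in WT epithelial cells, and the 5 fibroblast genes had 6039 and 2264 CPM. C1qb is itself on the macrophage list and gave 25 of its 69 KO and 8 of its 23 WT UMIs. Its agreement with that list is thus partly built in, while H2-Ab1 and Postn are on neither list. The part of joined cells was not tested. Shisa5 and Rpsa-ps10 were higher in other KO cells as well, with log2 ratios of 1.48 and 4.45 (2.36 and 3.86 in epithelial cells). Rpsa-ps10 is a processed pseudogene that shares sequence with Rpsa. Rps15a, which has pseudogene copies, had 27 WT and 0 KO UMIs in epithelial cells, and a log2 ratio of -1.57 in other cells. Its WT level was 5.93 times the limit of the KO zero, with the counting error of the WT left out. Both counts are uncertain. Pbrm1 had 19 KO and 6 WT UMIs (2.13), and 0.10 in other cells. Of the 10 lowest genes, 6 were at 0 in all KO sets and 7 were also lower in other KO cells by a log2 ratio of at least 1, among them the caseins read outside the chosen WT cells.

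Few transcripts of the complex that the knockout targets were read. Bbs8, listed as Ttc8 (chromosome 12, 98920574 to 98983238 in GRCm38), had 0 UMIs in the epithelial cells of both mice, which allows up to 118 CPM in the KO and 78.1 CPM in the WT, so the knockout could not be checked in these cells. Over all cells Ttc8 was at 0 in all 5 KO sets and in 4 of 5 WT sets, with 5 UMIs in WT4_p2. Of the 9 BBSome genes 2 were read, Bbs7 with 1 and Bbs9 with 2 UMIs. The Hedgehog list gave 4 KO and 11 WT UMIs, of which 6 were from the co-receptor gene Boc, and the intraflagellar transport list 7 and 5. Of the prolactin pathway, Jak2 had 5, Stat5a 6 and Stat5b 6 UMIs over both mice, and the list summed to 513 CPM (273 to 877) in the KO and 416 CPM (238 to 676) in the WT. Cell cycle genes had 750 CPM (452 to 1171) in the KO and 416 CPM (238 to 676) in the WT. Differences of these lists were not detectable at this depth.

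The 4 skin keratinocyte genes with a row had 0 UMIs in the epithelial cells. The mesothelial markers were not analysed here. In lymphocytes, which should lack them, Krt18 was read in 2 and Krt19 in 9 of 1712 KO cells, and Krt18 in 1, Krt19 in 0 and Wfdc18 in 1 of 89 WT cells. As these genes chose the epithelial cells, no comparison of the shares is made. Mfge8, which the rule did not use, was read in 1.34% of T cells over both mice. It was also read in 10.8% of endothelial and 5.86% of stromal cells, against 3.51% of KO and 57.5% of WT epithelial cells. Median depth over both mice was 323 UMIs in T cells, 298 in B cells and 356 in epithelial cells.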

How the data were processed

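The deposited values were UMI counts in 1 table, with 14623 genes as rows and 10914 cells as columns. Per the methods of the paper, the authors used bcl2fastq to demultiplex, dropSeqPipe with STAR to align to mm10 and count UMIs, and downsampleBatches to even out depth, and then removed cells by gene number and mitochondrial share. No source used here says at which of these steps the table was written. Its cells had 101 to 994 genes, and no further filter was applied. Genotype was taken from the column names, and 0 columns were unused. Set codes could not be matched to the labelled samples, so barcode sets are ranges, not replicates. The members and gene lists were chosen with earlier results of these data known.

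UMIs were summed over the epithelial cells of each mouse and scaled to counts per 1000000 (CPM). Shares have exact Clopper-Pearson intervals, levels exact Poisson intervals and plain ratios exact conditional intervals, all at 95%. A count of 0 was given a limit of 3 counts. Log2 ratios used a pseudocount of 20 CPM among genes with at least 20 UMIs. With 1 mouse per genotype, no test was run. Named genes were the rule genes, the 25 highest over other cells (at least 20 UMIs in at least 10 cells), list members with at least 5 UMIs or defining members at 0, the 10 highest and 10 lowest ratios of KO over WT, and Ttc8. Genes outside these are named for their counts. Clusters came from 30 principal components of 2000 variable genes without the rule genes (leidenalg 0.10.2, 20 neighbours, resolution 1). Doublets were kept and no doublet caller was run. TMM (edgeR 4.0.16) and DESeq2 1.42.0 size factors served as alternative scalings of the summed counts. The calculation of the ratios was checked on simulated counts. Positions are from GENCODE vM21 (GRCm38).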

Additional observations from a re-analysis of the deposited data

Results flagged for a closer look

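Dixon's criterion was applied to the 5 barcode sets of each mouse for the share, the depth, 5 gene lists and the 6 marker genes, and about 1 in 20 such groups passes it by chance. In the KO, a single set stood apart from the others in 4 measures. The secretory progenitor list reached 8515 CPM in KO5_p2, where 1 cell carried all 18 UMIs, and Wfdc18 reached 2365 CPM in the same set. The basal list reached 291 CPM in KO6_p1, from 3 UMIs of Mylk in 1 cell, and Krt8 reached 2838 CPM in KO6_p2 with 18 UMIs over its 13 cells. No WT set stood apart by this criterion.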

How the results depend on the processing

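The KO share stayed below the WT share and the 4 compartment lists kept their direction under every alternative run. The difference in share was -3.51 percentage points and became -2.02 with at least 3 marker genes, -2.04 without Wfdc18 in the rule, -2.57 with thinned cells, -6.53 among cells with at least 200 genes and -6.54 with the cluster as membership; without each barcode set it lay between -4.79 and -2.68. The 45 genes higher in the KO became 23 with at least 3 marker genes, 12 without epithelial cells that carried RNA of another type, 29 with the cluster, 19 with cells in both, 11 at 50 UMIs and 3078 with no minimum, and 34 to 46 without each set. The 64 lower genes became 42, 32, 97 (105 with DESeq2 size factors), 15 and 2396 for the same settings other than that of cells in both, and 35 to 65 without each set, the lowest without WT3_p2. The 78 epithelial genes became 32 without mixed cells and 55 to 78 without each set. The milk list (log2 -8.11, set by the pseudocount because the KO is at 0, and no bound on the change) became -12.42 at 1 CPM and -8.60 without Gm42418 and mitochondrial genes, and -8.27 to -7.83 without each set. The secretory progenitor list (-2.26) became -3.27 without mixed cells, -1.55 with the cluster, -3.07 with cells in both and -3.25 to -1.75 without each set. The basal list (-4.35) became -7.10 with at least 3 marker UMIs, -7.24 with at least 3 marker genes, -7.15 at a fibroblast limit of 1%, -6.92 without mixed cells, -7.21 with cells in both and -7.15 to -3.99 without each set, since its 3 KO UMIs come from 1 cell. Against other cells, this list turned to -0.42, -0.39, -0.38, -0.58 and -0.34 under the same 5 settings, and lay between -0.37 and 1.26 without each set. The hormone-sensing list (1.32) lay between 0.81 and 1.56 without each set.

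Postn turned to -0.052 at the fibroblast limit of 1%. The transcription and splicing factors (-0.38) turned to 0.38 without mixed cells, and the junction list (0.35) to -0.14 at 200 genes, to -0.032 with DESeq2 size factors, and lay between -0.14 and 0.56 without each set. The median log2 ratio of all genes (-0.20) was -0.34 with TMM, -0.33 without Gm42418 and mitochondrial genes, -0.58 with DESeq2 size factors and 0.37 with no minimum. The causes of these changes were not tested. The settings of cells in both the rule and the cluster, and of genes with a UMI in every set, were chosen after seeing the data. Of 1168 values for single named genes over the alternatives, 1108 stayed within their interval, 59 moved and 1 reversed. No paired analysis was possible because no result comes from a test and the barcode sets carry no replicate number of the labels. Depth limits genes with few UMIs, where 0 allows up to 118 CPM in KO and 78.1 CPM in WT epithelial cells.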
